A study of Mus musculus with 6 samples.

Results

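The kidney microRNAs described here are mmu-miR-192, mmu-miR-194, mmu-miR-215, mmu-miR-204 and mmu-miR-211, taken by name with every arm and every locus. Of these 5 miRNAs, 4 were analysed, as 5 mature strands on 6 rows, out of 535 mature miRNAs in all. The mature strands were miR-192-5p, miR-194-5p, miR-194-2-3p, miR-204-5p and miR-211-5p, and all 5 were among the 525 miRNAs tested, whose counts summed to more than 10. mmu-miR-215 and the other arms were not analysed here.

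Small RNA libraries came from wildtype CD1 mouse embryos at embryonic day 15.5, with 3 libraries of nephrogenic mesenchyme enriched in nephron progenitors (MNP1, MNP2 and MNP6) and 3 of whole kidney (MWK1, MWK2 and MWK6). Nephron progenitors were obtained by depletion with antibodies to CD140a, CD105, Epcam and Ter119, and no antibody selected the progenitors themselves. Whole kidney was the tissue that remained after the limited digestion, and its RNA was purified with a different kit (miRNeasy Mini) from that of the progenitors (miRNeasy Micro), so isolation, kit and cell type cannot be told apart. Libraries held 393951, 436112 and 333850 counts for MNP1, MNP2 and MNP6 and 349241, 360221 and 355848 for MWK1, MWK2 and MWK6. The progenitor libraries differed more among themselves than those of whole kidney. For pairs of libraries, chi-square divided by its degrees of freedom was 20.6 for MNP1 and MNP2, 55.0 for MNP1 and MNP6 and 21.4 for MNP2 and MNP6, against 2.90 to 8.82 between whole kidney libraries.

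A miRNA is cut from a hairpin precursor, and the loaded strand pairs with target transcripts mainly through its seed, bases 2 to 8. miR-192 and miR-215 have the same seed, and each lies beside a copy of miR-194, so that the 3 are often made together. They are abundant in epithelia of the adult kidney, liver and intestine. miR-204 and miR-211 share another seed and lie within introns of the channel genes Trpm3 and Trpm1. miR-204 is known from kidney, eye and choroid plexus, and miR-211 from melanocytes.

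In the progenitors both strands with a call were lower: miR-192-5p was at 23.1% and miR-194-5p at 32.9% of the whole kidney mean. These 2 strands have different seeds. miR-204-5p and miR-211-5p, which share a seed, were at 87.5% and 73.7% of the whole kidney mean and did not pass the test. At a Benjamini-Hochberg adjusted p of 0.05 in edgeR (quasi-likelihood), 2 of the 5 strands were lower in nephron progenitors, against 17.1% of all 525 miRNAs, and 0 were higher, against 19.4%. With DESeq2 and limma-voom 0 strands were higher as well, against 86 and 92 of all 525 miRNAs. Groups did not overlap, with progenitors below, for 2 of the 5 strands and for 23.2% of all miRNAs. Progenitors lay wholly above whole kidney for 0 of the 5 strands and for 23.4% of all miRNAs. The median log2 fold change, progenitors over whole kidney, was -0.44 over the 5 strands and -0.01 over all 525 miRNAs. It was -1.02 over the 4 without miR-194-2-3p, which was near the floor of detection and had a log2 fold change of 1.45. That median was not foreseen in the design, and it lies between the values of miR-194-5p (-1.59) and miR-211-5p (-0.44). These counts rest on few strands and move with MNP6. Without it 4 of the 5 strands were lower, with miR-204-5p and miR-211-5p added, against 18.1% of the 507 miRNAs then tested. Without both MNP6 and MWK6, however, 2 strands were lower, against 76 of the 487 miRNAs then tested. There miR-204-5p and miR-211-5p did not pass (adjusted p = 0.052 and 0.068 in edgeR). In bulk RNA, fewer cells of a type and less of a miRNA per cell cannot be told apart.

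Counts of miR-192-5p ran from 169 in MNP6 to 752 in MWK1. As CPM, which are counts scaled by the TMM method to a common library total, its level was 515, 468 and 444 CPM in MNP1, MNP2 and MNP6 against 2261, 2311 and 1599.6 CPM in MWK1, MWK2 and MWK6. Each whole kidney library was above each progenitor library, and MWK6 was the lowest of whole kidney. The mean was 476 ± 35.8 CPM in progenitors against 2057 ± 397 CPM in whole kidney (SD, n = 3 libraries each). The log2 fold change was -2.11 (SE 0.20, adjusted p = 3.2e-06 in edgeR), and the level was lower in 3 of 3 progenitor libraries. By mean CPM within a group miR-192-5p ranked 121 of 525 in progenitors and 60 in whole kidney, and its log2 fold change was the 37th lowest.

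miR-194-5p, which is made from both miR-194 hairpins, had a much lower level. On the row of mir-194-2 it was counted 15, 14 and 12 times in MNP1, MNP2 and MNP6 against 32, 40 and 27 times in MWK1, MWK2 and MWK6. These counts were the higher of its rows in every library and were used for the test. Its level was 36.9, 30.5 and 31.5 CPM in the progenitors and 96.2, 126 and 78.8 CPM in whole kidney. Here too the groups did not overlap, and the lowest whole kidney value was again that of MWK6. The mean was 33.0 ± 3.45 CPM against 100.3 ± 23.8 CPM (SD over 3 libraries), a log2 fold change of -1.59 (SE 0.29, adjusted p = 0.00077 in edgeR), lower in 3 of 3 progenitor libraries.

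On the row of mir-194-1 the same mature strand was counted 4, 8 and 2 times in MNP1, MNP2 and MNP6 against 4, 5 and 6 times in MWK1, MWK2 and MWK6. These groups overlapped, at 10.8 ± 6.15 CPM in progenitors against 15.1 ± 2.80 CPM in whole kidney (SD over 3 libraries). Of the counts on both rows, the mir-194-1 row held 21.1%, 36.4% and 14.3% in MNP1, MNP2 and MNP6 against 11.1%, 11.1% and 18.2% in MWK1, MWK2 and MWK6. The 95% Wilson interval was widest in MNP2 and MNP6, at 19.7% to 57.0% and 4.01% to 39.9%, and was 4.41% to 25.3% in MWK1, 4.84% to 23.5% in MWK2, 8.61% to 34.4% in MWK6 and 8.51% to 43.3% in MNP1. The intervals of all 6 libraries overlapped, and the share was 23.9 ± 11.3% in progenitors against 13.5 ± 4.08% in whole kidney (SD over 3 libraries, exact permutation p = 0.2), on 14 of 55 and 15 of 114 counts. The mature sequence is the same from both hairpins, so a count on either row does not show which locus made the molecule. Reads carry no molecular identifiers, so intervals and floors cover counting error only.

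The other strand of mir-194-2, miR-194-2-3p, was near the floor of 3 counts, which is 6.54 to 9.45 CPM depending on the library. It was counted 6, 3 and 2 times in MNP1, MNP2 and MNP6 against 3, 0 and 0 times in MWK1, MWK2 and MWK6. MNP1 alone was above the floor, and this strand did not pass the test (adjusted p = 0.34 in edgeR). As a share of both strands on the mir-194-2 rows, a measure chosen after its values were seen, it took 28.6% (95% Wilson interval 13.8% to 49.96%), 17.6% (6.19% to 41.0%) and 14.3% (4.01% to 39.9%) in MNP1, MNP2 and MNP6. In whole kidney it took 8.57% (2.96% to 22.4%) in MWK1, 0 of 40 counts in MWK2 (0% to 8.76%) and 0 of 27 in MWK6 (0% to 12.5%). The progenitor shares were the higher, but the intervals of all 3 whole kidney libraries overlapped those of MNP2 and MNP6, and that of MWK1 also overlapped MNP1. Over libraries the share was 20.2 ± 7.47% in progenitors against 2.86 ± 4.95% in whole kidney (SD over 3 libraries), on 11 of 52 and 3 of 102 counts. No difference is read from this, since the strand passed the count filter only with its progenitor counts. The 5p counts in the total were also themselves lower in progenitors. The 5p counts in this share could come from either hairpin.

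**Figure D1:**
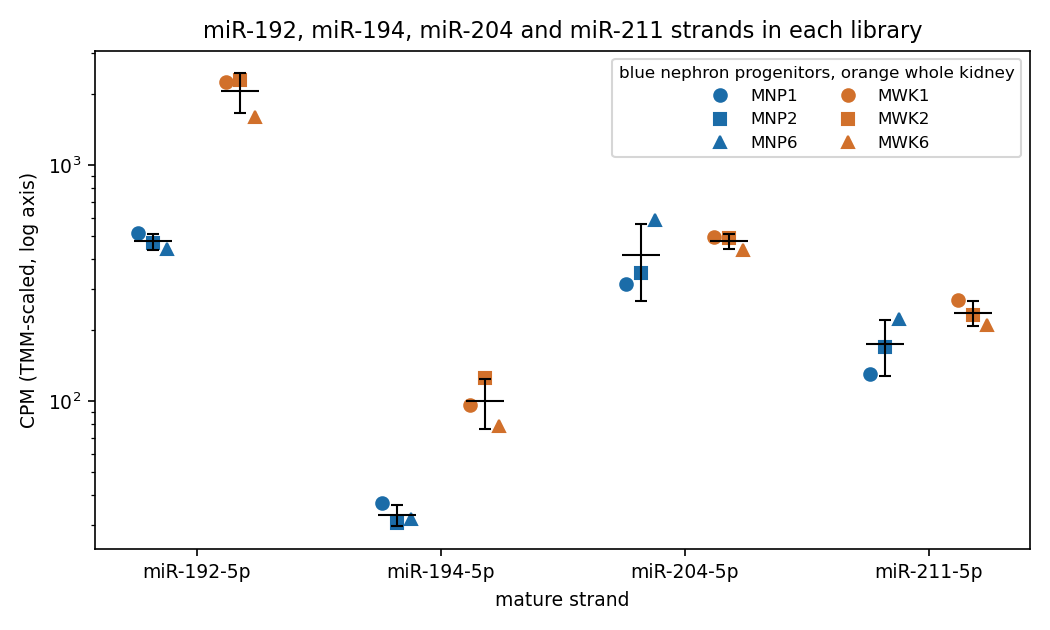
Level of each mature strand in each library, in TMM-scaled CPM on a log axis, with nephron progenitors in blue and whole kidney in orange. Horizontal bars are means and error bars SD (n = 3 libraries); miR-192-5p and miR-194-5p do not overlap between groups, while MNP6 (blue triangle) is the highest of all libraries for miR-204-5p.

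The positions of these hairpins are given on GRCm38, from RefSeq GRCm38.p6, all on the plus strand, and were equal to those in the deposited table for the 5 hairpins analysed. Mir194-2 lies at chr19:6264643-6264728 and Mir192 at chr19:6264844-6264932, 115 bases apart and outside other annotated genes, with Atg2a nearest, 2307 bases from Mir194-2. Mir194-1 lies at chr1:185313319-185313385 and Mir215 at chr1:185313581-185313692, 195 bases apart. Mir194-1 is in an intron, and Mir215 overlaps an exon, of the noncoding transcript 2010103J01Rik on the same strand, and both are within an intron of Iars2 on the opposite strand. The hairpins of miR-194 are shown because the same mature strand sits in different flanks, with the mature arms in capitals (5′ to 3′).
Mir194-2: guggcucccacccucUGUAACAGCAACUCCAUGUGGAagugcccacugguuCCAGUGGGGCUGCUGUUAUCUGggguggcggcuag
Mir194-1: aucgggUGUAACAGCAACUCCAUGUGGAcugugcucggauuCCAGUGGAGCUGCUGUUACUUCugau

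**Figure D2:**
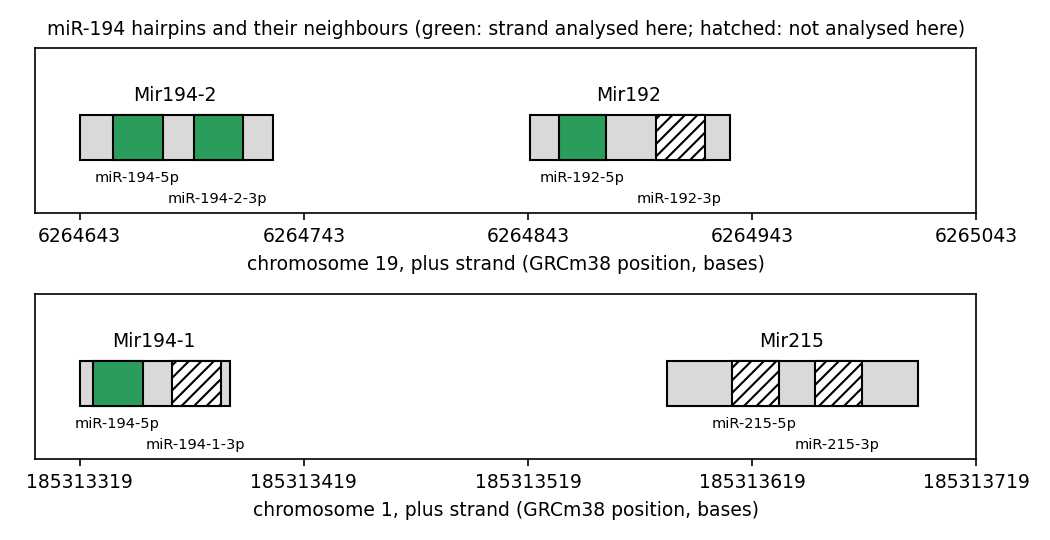
Map of the miR-194 hairpins and their neighbours, with position in bases along chromosomes 19 (top) and 1 (bottom) on the plus strand of GRCm38, drawn to scale. Gray boxes are hairpins, green boxes are strands analysed here and hatched boxes strands not analysed here; the gap between hairpins is 115 bases at the top and 195 bases at the bottom.

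Mature sequences from RefSeq (GRCm38.p6) were found for 5 of the 5 strands and for 440 of the 535 miRNAs in the table. They are shown to group the strands by seed, which is in capitals (bases 2 to 8, 5′ to 3′).
miR-192-5p: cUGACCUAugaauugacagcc
miR-215-5p: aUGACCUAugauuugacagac
miR-194-5p: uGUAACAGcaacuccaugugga
miR-194-2-3p: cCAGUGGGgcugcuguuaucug
miR-204-5p: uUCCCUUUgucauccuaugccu
miR-211-5p: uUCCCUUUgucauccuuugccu
With positions counted from 1 at the 5′ end, miR-192-5p and miR-215-5p differ by C1A, A12U and C20A, which leaves the seed the same (85.7% identity). miR-204-5p and miR-211-5p differ by A17U alone (95.5% identity). Among the 440 miRNAs with a sequence, no other had the seed of miR-192-5p, of miR-194-5p or of miR-194-2-3p, and miR-204-5p and miR-211-5p had each other's seed only.

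miR-204-5p was counted 127, 160 and 224 times in MNP1, MNP2 and MNP6 against 166, 156 and 150 times in MWK1, MWK2 and MWK6. Its level was 313, 349 and 589 CPM in the progenitors and 499, 491 and 438 CPM in whole kidney. The groups overlapped: MNP1 and MNP2 were below all whole kidney libraries, and MNP6 was above all of them. The mean was 417 ± 150.05 CPM in progenitors against 476 ± 33.4 CPM in whole kidney (SD over 3 libraries). The log2 fold change was -0.19 (SE 0.25, adjusted p = 0.61 in edgeR), and it was 0.03 when library totals replaced TMM, a scaling that moved the median of all miRNAs from -0.01 to 0.19. Relative to that median it was -0.18 with TMM and -0.16 with library totals. Without MNP6 it was -0.56 (adjusted p = 0.043, within a range of 0.043 to 0.957 over 17 alternatives). This miRNA is within an intron of Trpm3, at chr19:22750605-22750672.

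miR-211-5p, within an intron of Trpm1 at chr7:64205806-64205911, was counted 53, 78 and 85 times in MNP1, MNP2 and MNP6 against 89, 74 and 72 times in MWK1, MWK2 and MWK6. Its level was 130.5, 169.9 and 223 CPM in the progenitors and 268, 233 and 210.2 CPM in whole kidney. Again MNP1 and MNP2 were below all whole kidney libraries, and MNP6 lay between MWK6 and MWK2. The mean was 175 ± 46.6 CPM against 237 ± 28.9 CPM (SD over 3 libraries), a log2 fold change of -0.44 (SE 0.25, adjusted p = 0.20 in edgeR). Without MNP6 it was -0.69 (adjusted p = 0.039, within a range of 0.039 to 0.568 over 17 alternatives).

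Since miR-204-5p and miR-211-5p differ at a single base, reads with an error or an edited base there could be counted for either, and this was not tested. Of the counts on both, miR-211-5p took 29.4%, 32.8% and 27.5% in MNP1, MNP2 and MNP6 against 34.9%, 32.2% and 32.4% in MWK1, MWK2 and MWK6. The lowest and highest of these had 95% Wilson intervals of 22.8% to 32.7% and 29.3% to 40.9%, which overlap. The groups overlapped, at 29.9 ± 2.66% in progenitors and 33.2 ± 1.51% in whole kidney (SD over 3 libraries).

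The mean levels of the 5p strands had the same order in both groups. In each whole kidney library miR-192-5p was the highest, followed by miR-204-5p, miR-211-5p and miR-194-5p, and no neighbours in this order overlapped. In the progenitors miR-192-5p and miR-204-5p overlapped, with miR-192-5p higher in MNP1 and MNP2 and miR-204-5p higher in MNP6, and miR-211-5p and miR-194-5p followed. Levels of different miRNAs are compared here as reads, since capture by adapter ligation differs between sequences. The ratio of miR-192-5p to miR-204-5p was 1.65, 1.34 and 0.754 in MNP1, MNP2 and MNP6 against 4.53, 4.71 and 3.65 in MWK1, MWK2 and MWK6. Each ratio in whole kidney was above each ratio in the progenitors.

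Summed over strands, miR-192 and miR-194 were at 566, 505 and 481 CPM in MNP1, MNP2 and MNP6 against 2367, 2437 and 1678 CPM in MWK1, MWK2 and MWK6. The groups did not overlap, and the difference in log2 of the sum was -2.05 (p = 0.1, two-sided, in an exact permutation test, which is the smallest that 3 against 3 libraries can give). Summed miR-204 and miR-211 strands were at 443, 518 and 812 CPM in the progenitors and 767, 724 and 648 CPM in whole kidney. These overlapped, with a log2 difference of -0.32 (exact p = 0.4), and from -0.57 without MNP6 to -0.13 without MNP1 when each library was left out in turn. The ratio of the first sum to the second, which does not depend on the scaling of a library, was 1.28, 0.975 and 0.592 in the progenitors and 3.09, 3.37 and 2.59 in whole kidney. It was lower in 3 of 3 progenitor libraries, by a log2 difference of -1.73 (exact p = 0.1, again the smallest possible).

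The ratio of miR-192-5p to miR-194-5p was compared as well. miR-192-5p was 13.9, 15.4 and 14.1 times miR-194-5p in MNP1, MNP2 and MNP6 against 23.5, 18.4 and 20.3 times in MWK1, MWK2 and MWK6. The ratio was lower in each progenitor library, a description chosen after the values were seen. It rests on 12 to 15 counts of miR-194-5p in each progenitor library.

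Epithelial markers, whose cells the sort removes with Epcam, were lower in the progenitors, and their part in the levels of miR-192-5p and miR-194-5p was not tested. Of 12 epithelial strands, 11 were lower and 0 higher, against 17.1% and 19.4% of all miRNAs. Their summed level was 7834, 7551 and 4693 CPM in MNP1, MNP2 and MNP6 against 32858, 35919 and 33699 CPM in MWK1, MWK2 and MWK6. The most abundant in whole kidney, miR-200a-3p, was at 105 ± 67.5 CPM against 12440.2 ± 1205 CPM (SD over 3 libraries), while miR-200b-5p and miR-141-3p were at 0 counts and miR-205-5p at 3 counts or fewer in every progenitor library. The strand that did not pass, miR-183-5p, was the most abundant in progenitors, at 4112 ± 1033 CPM in progenitors and 5675 ± 932 CPM in whole kidney. The strands of miR-141, miR-429, miR-200a, miR-200b and miR-200c, known as the miR-200 family and as marks of epithelium, together were at 0.954%, 1.62% and 0.376% of the whole kidney mean in MNP1, MNP2 and MNP6, where miR-192-5p was at 25.0%, 22.8% and 21.6%. The progenitor level of miR-192-5p relative to whole kidney was therefore above that of this family in each library. The ratio of miR-192-5p to the family was 2.27, 1.21 and 4.97 in the progenitors and 0.0943, 0.0909 and 0.0733 in whole kidney (log2 difference 4.80). This comparison was chosen after seeing the data. Its exact permutation p of 0.1, the smallest that 3 against 3 libraries can give, is therefore not read as support. Against the whole epithelial list the difference in log2 ratio was 0.29 (exact permutation p = 0.5), and the groups overlapped. It ranged from 0.10 without MNP6 to 0.41 without MNP2 when each library was left out in turn. In the progenitors miR-182-5p and miR-183-5p made up 93.5% of that list's sum on average, against 26.9% in whole kidney, and they were together at 67.9% of the whole kidney mean. The other 10 strands were together at 1.80%.

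**Figure D3:**
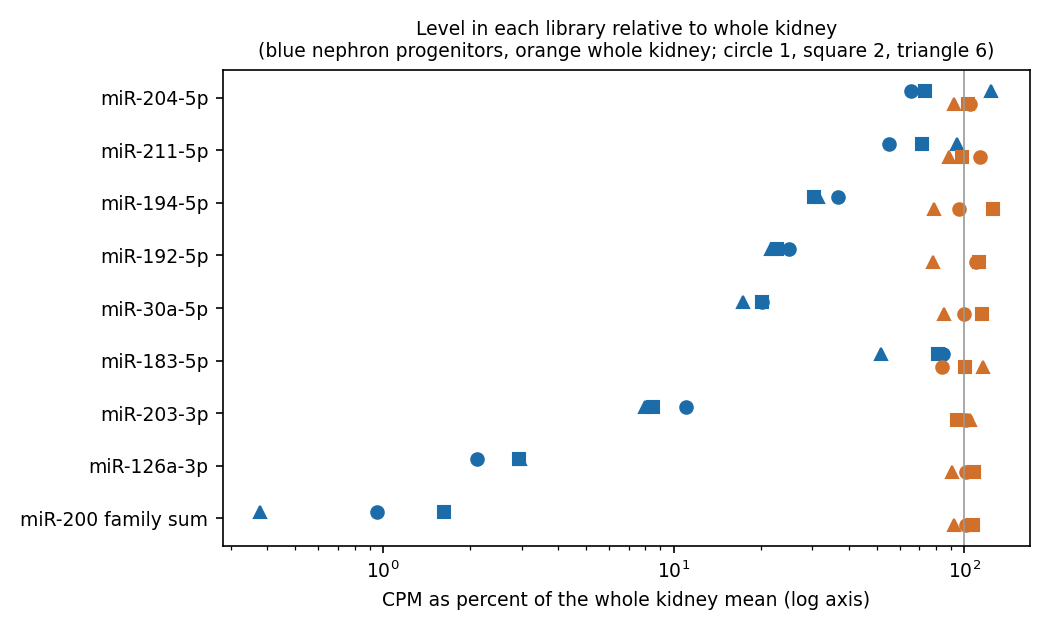
Level in each library as a percent of the whole kidney mean, on a log axis, for miR-192-5p, miR-194-5p, miR-204-5p and miR-211-5p. Also drawn are miR-30a-5p, miR-183-5p, miR-203-3p, miR-126a-3p and the summed miR-200 family (with miR-141 and miR-429). Blue points are nephron progenitors and orange points whole kidney; miR-192-5p lies at 21.6% to 25.0% in progenitors and the miR-200 family at 0.376% to 1.62%.

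After a sort whose depleting antibodies included CD105 and Ter119, endothelial and erythroid markers also moved with miR-192-5p and miR-194-5p, and their part was not tested. Both endothelial strands were lower, against 17.1% of all miRNAs, and miR-126a-3p was the most abundant (502 against 18825 CPM). Their sums were 419, 595 and 578 CPM in MNP1, MNP2 and MNP6 against 20132, 21311 and 18149.9 CPM in MWK1, MWK2 and MWK6. Of 7 erythroid strands 5 were lower and 0 higher, against 17.1% and 19.4% of all miRNAs. The lower ones were miR-451a, both miR-144 strands and the 5p strands of miR-486a and miR-486b. Erythroid sums were 549, 405 and 271 CPM in MNP1, MNP2 and MNP6 against 1858, 1852 and 952 CPM in MWK1, MWK2 and MWK6. The most abundant in whole kidney was miR-451a (100.2 against 569.7 CPM). In progenitors it was the miR-486a and miR-486b 5p strands, each at 121 against 300.1 CPM. Of 10 strands of stroma and smooth muscle, 2 were lower (miR-143-3p and miR-145a-5p) and 1 higher (miR-199b-5p), which is 20% and 10% of the list against 17.1% and 19.4% of all miRNAs, and their sums were 44014, 58206 and 59521 CPM against 83097, 95642 and 80125 CPM (most abundant miR-143-3p, 24996 against 62789.8 CPM). The lower stromal sum rests on miR-143-3p: the other 9 strands, a split made after seeing the values, summed to 28918 ± 5671 CPM in progenitors against 23498 ± 997 CPM in whole kidney (SD over 3 libraries), and the list's median log2 fold change was 0.20. miR-199a-3p and miR-199b-3p had the same counts, as did the miR-486a and miR-486b strands, so these lists hold fewer separate measurements than strands.

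Markers of liver, skeletal muscle and leukocytes were measured as well. miR-122-5p, the hepatocyte miRNA, was higher, at 98.5, 24.0 and 55.2 CPM in MNP1, MNP2 and MNP6, and was at 3 counts or fewer in every whole kidney library. Liver also makes miR-192 and miR-194, and the part of liver RNA in their levels was not tested. In CPM, MNP1 was highest of the progenitors in miR-122-5p and in miR-192-5p, while MNP6 had more miR-122-5p than MNP2 and less miR-192-5p. Nothing is read from this order, since miR-192-5p lay close together in these libraries, at 515, 468 and 444 CPM in MNP1, MNP2 and MNP6. Of 3 skeletal muscle strands, 1 was higher and 0 lower, against 19.4% and 17.1% of all miRNAs. The higher strand, miR-206-3p, was at 187, 281 and 65.7 CPM in MNP1, MNP2 and MNP6 (mean 177.9 against 6.22 CPM in whole kidney). miR-1a-3p, the most abundant in whole kidney, was at 103.6 against 70.1 CPM and did not pass. miR-133a-3p was at 3 counts or fewer in all whole kidney libraries. Of 6 leukocyte strands 1 was higher (16.7%, against 19.4% of all miRNAs) and 0 lower (against 17.1%). The higher strand was miR-223-5p, which had 4, 8 and 7 counts in MNP1, MNP2 and MNP6 and 0 in every whole kidney library. miR-223-3p was at 3 counts or fewer in all whole kidney libraries, and the most abundant leukocyte strand of the progenitors, miR-142a-3p, was at 49.8 against 30.3 CPM. In whole kidney miR-142a-5p was the most abundant (31.9 against 35.5 CPM).

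Some miR-30 strands, a family abundant in kidney epithelium, lay near miR-192-5p and miR-194-5p. Of 11 strands, 6 were lower and 0 higher, against 17.1% and 19.4% of all miRNAs, at a median of -0.81 in log2 fold change. Their sums were 37721, 35738 and 32635 CPM in MNP1, MNP2 and MNP6 against 92185, 102582 and 78983 CPM in MWK1, MWK2 and MWK6. The most abundant in whole kidney was miR-30a-5p (10206 against 53102 CPM), while miR-30d-5p, the most abundant in progenitors (15390.2 against 18839 CPM), miR-30b-3p, miR-30c-1-3p, miR-30d-3p and miR-30e-3p did not pass. Over the 6 libraries, centred log2 CPM of 285 miRNAs with a mean of at least 50 CPM were compared with miR-192-5p, miR-194-5p and miR-204-5p by root mean square distance, as a description. The nearest to miR-192-5p were miR-322-5p (distance 0.14), miR-30a-5p (0.17) and miR-187-3p (0.23), with log2 fold changes of -2.25, -2.38 and -2.64. The nearest to miR-194-5p were miR-30c-5p (0.08), miR-28a-3p (0.13) and miR-30a-3p (0.15), so 2 of its 3 neighbours were miR-30 strands. The nearest to miR-204-5p were miR-151-5p (0.12), miR-322-3p (0.16) and miR-211-5p (0.16). miR-211-5p, its partner by seed, was thus among the 3 nearest to miR-204-5p, whereas miR-192-5p was farther from miR-204-5p (0.98) than from miR-194-5p (0.34).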

How the data were processed

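Adapter trimming (BBDuk), alignment to mm10 (Bowtie2 2.2.3) and quantification of miRBase miRNAs (miRDeep2) were done by the authors. The deposited values are estimated counts per mature miRNA and precursor, without normalization; 3 of 792 rows hold fractions and were rounded. For each mature miRNA the highest row in each library was kept, and miRNAs with a summed count above 10 were tested in edgeR 4.0.16 (TMM, quasi-likelihood, Benjamini-Hochberg over 525 miRNAs). DESeq2 1.42.0 and limma-voom (limma 3.58.1) served as alternatives, in R 4.3.3. The standard error was the absolute log2 fold change over the root of F. Figures used matplotlib 3.10.9. The design foresaw raw counts, and rounded estimated counts were tested instead. It also foresaw shares of the miR-194 3p strands by locus; the miR-194-5p rows are given in their place. Sequences came from RefSeq GRCm38.p6 and host genes from GENCODE.

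Columns MNP6 and MWK6 (2 of 6) equal no sample title and entered as group members without a replicate number. The labels call the samples replicates, and the study used 3 litters. Named strands were every member, each marker list by its counts, sums and most abundant strand, strands at 3 counts or fewer throughout a group, and the 3 nearest miRNAs; miR-182-5p, miR-183-5p, miR-203-3p, strands most abundant in a single group and strands named beside counts of 5 or fewer were chosen after their values were seen. Members and lists were chosen with earlier results of these data known. The test was tried on simulated counts. Alternatives covered test, scaling, filter, precursor rows, abundant miRNAs, replicate block and each library left out.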

Additional observations from a re-analysis of the deposited data

How the results depend on the processing

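miR-192-5p and miR-194-5p were lower and past the threshold under all 17 alternatives, with log2 fold changes of -2.26 to -1.90 and -1.74 to -1.31. miR-204-5p ranged from -0.61 to 0.03 and turned sign with library totals (0.027, adjusted p = 0.957), a scaling that moved the median of all miRNAs by a like amount, from -0.01 to 0.19. miR-211-5p ranged from -0.77 to -0.23. When each library was left out in turn, the number of strands lower in progenitors was 2 to 4, and it was 4 without MNP6. Of all miRNAs tested, from 68 of 511 (without MWK1) to 102 of 510 (without MNP1) were then lower, and 92 of 507 without MNP6. miR-194-2-3p passed under 0 of 15 alternatives. Past the threshold were 90 lower and 102 higher miRNAs, and in all 120 of the 260 miRNAs that had more than 10 counts in every library, where fewer miRNAs were tested. With library totals 74 were lower and 121 higher.

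The replicate numbers shared by both groups cover 4 libraries. Across 525 miRNAs the difference of MNP1 less MNP2 had a correlation of r = 0.04 with that of MWK1 less MWK2. Since r rests on these 4 libraries alone, it cannot show whether the groups were paired by litter, which the labels do not give. The column names MNP6 and MWK6 also share a number, but it matches no sample title, and they were left out of the replicate block. With the replicate block 153 of 487 miRNAs passed (82 lower) and without it 134 on the same libraries (76 lower), and 2 member strands were lower either way. Depth limits the shares of the miR-194-5p rows, which rest on 14 to 22 counts in each progenitor library.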
